A study of Homo sapiens with 6 samples.

Results

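Blood coagulation and complement are protease cascades that meet at the cell surface, and this account covers 9 genes that start, brake or shield against them. The genes are F3, TFPI, TFPI2, VTN, THBD, C3, CD46, CD55 and CD59. They were taken by symbol from a given list, and all 9 were found among the 56638 gene rows of each count table. They were followed in RNA-sequencing libraries of SW480, by its label a line from a human colorectal adenocarcinoma, at passages 16-19. The 3 TGFB1 libraries came from cells repeatedly given 10 ng/ml of TGF-β1, and the 3 control libraries from cells left without it. Both groups were grown in RPMI-1640 with serum, and the labels give no total time of exposure. The labels name no separate cultures, so the p-values below reflect the spread among these 6 samples alone, and that spread may be technical.

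Tissue factor, the product of F3, binds factor VIIa and starts clotting, and many carcinomas expose it. TFPI blocks the tissue factor complex, TFPI2 is a related Kunitz-type protease inhibitor that is also laid down in the matrix, and thrombomodulin (THBD) turns thrombin into an activator of the anticoagulant protein C. Vitronectin (VTN) is an adhesive plasma and matrix protein that binds integrins and the urokinase receptor, and it also hinders assembly of the complement membrane attack complex. C3 is the protein on which the complement pathways converge. CD46, CD55 and CD59 sit on the membrane of most human cells and protect it: CD46 is a cofactor for cleavage of C3b and C4b, CD55 speeds decay of the convertases, and CD59 stops the membrane attack complex from forming its pore.

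Total counts in genes ran from 13012898 to 16005222 per library. All 12 genes of a list of known TGF-β responders were higher in the TGFB1 libraries. This list was chosen with earlier results of these data known, so the count does not test the response. Among all tested genes 23.4% were called higher. JUNB, an AP-1 subunit gene of the list, was at 125 ± 4.56 CPM in TGFB1 and 31.0 ± 0.978 CPM in control libraries (SD, n = 3 each). CPM are counts per 1000000 counts in genes of the library, after scaling by TMM (trimmed mean of M-values). Of 12 colorectal epithelial markers only KRT8, KRT18 and EPCAM had enough counts to be tested. In TGFB1 and control libraries KRT8 averaged 1675 and 1708 CPM, KRT18 125 and 183 CPM, and EPCAM only 4.05 and 6.92 CPM. KRT18 and EPCAM were lower with TGF-β1 (edgeR adjusted p = 1.73e-10 and 0.000246), and KRT8 did not pass (edgeR adjusted p = 0.628). The other 9, which include CDX2, VIL1, CDH17, KRT19 and KRT20, averaged 0.277 CPM or less in either group, and CDX2 and GPA33 had 0 counts in all 6 libraries. The intestinal part of the label is thus not borne out by these markers, and the cells are called by their label only. The libraries are of bulk RNA, in which fewer cells of a type and less RNA per cell cannot be told apart.

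The promoters of 4 members are shown because they belong to the largest rise (F3), the largest fall (VTN), an inhibitor that fell while holding a motif also found upstream of F3 (TFPI2), and the most abundant member (CD55). Each runs from 250 bases before to 50 bases after the annotated start in RefSeq (GRCh38.p14), while the counts were made on another build. Capitals mark matches on either strand to TGANTCA, the core letters bound by AP-1 factors, or to CAGAC, a box bound by SMAD proteins. F3 lies on the minus strand at chr1:94541710-94542009, TFPI2 on the minus strand at chr7:93890704-93891003, VTN on the minus strand at chr17:28370258-28370557 and CD55 on the plus strand at chr1:207321428-207321727.
F3: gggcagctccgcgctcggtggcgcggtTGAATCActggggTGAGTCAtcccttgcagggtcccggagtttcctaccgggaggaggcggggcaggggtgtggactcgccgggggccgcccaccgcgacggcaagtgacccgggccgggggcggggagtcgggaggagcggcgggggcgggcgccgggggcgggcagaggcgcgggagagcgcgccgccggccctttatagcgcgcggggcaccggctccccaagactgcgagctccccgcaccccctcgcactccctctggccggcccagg
TFPI2: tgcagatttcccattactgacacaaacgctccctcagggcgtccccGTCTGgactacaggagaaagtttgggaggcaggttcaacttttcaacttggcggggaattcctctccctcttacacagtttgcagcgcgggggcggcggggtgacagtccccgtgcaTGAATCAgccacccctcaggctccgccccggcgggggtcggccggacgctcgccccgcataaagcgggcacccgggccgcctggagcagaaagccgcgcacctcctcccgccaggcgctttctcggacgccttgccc
VTN: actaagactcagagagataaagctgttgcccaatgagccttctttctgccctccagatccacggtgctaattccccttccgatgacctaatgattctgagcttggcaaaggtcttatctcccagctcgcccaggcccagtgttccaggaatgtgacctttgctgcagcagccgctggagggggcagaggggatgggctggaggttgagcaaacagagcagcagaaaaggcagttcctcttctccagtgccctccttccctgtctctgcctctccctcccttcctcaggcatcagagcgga
CD55: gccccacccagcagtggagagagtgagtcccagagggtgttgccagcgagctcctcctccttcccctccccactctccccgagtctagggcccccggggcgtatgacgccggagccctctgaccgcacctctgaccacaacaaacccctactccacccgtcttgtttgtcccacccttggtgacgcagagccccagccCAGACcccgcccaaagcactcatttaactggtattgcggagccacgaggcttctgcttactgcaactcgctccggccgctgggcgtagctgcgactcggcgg
The F3 window held 2 matches to TGANTCA, which begin 223 and 210 bases before the start, and no CAGAC. The TFPI2 window held 1 TGANTCA, which begins 87 bases before the start, and 1 CAGAC on the opposite strand. The VTN window held neither, and that of CD55 held 1 CAGAC, which begins 52 bases before the start. Among 35116 promoter windows of the same length, 7.71% held TGANTCA and 45.3% held CAGAC. The box GGGCGG, known from Sp1 binding, stood 4 times in the F3 window and 2 times in that of TFPI2, and 45.0% of all windows held it. For NF-kB only 1 narrow pattern of 10 letters was searched, which was in none of the windows of the members and in 1.91% of all windows. Other forms of the NF-kB motif were not searched. The windows of the members, those of F3 and TFPI2 included, may therefore still hold NF-kB sites. RefSeq windows matched 7 members; THBD and C3 had no entry. CD59 had 4 annotated starts, and only the last of these windows held TGANTCA, in 3 places, of which 1 overlapped a CAGAC match on the opposite strand. These are matches of letters in a window, and binding was not measured.

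Of the 9 genes 8 had enough counts to be tested, and of these F3, THBD and CD59 were higher and TFPI2, VTN, C3, CD46 and CD55 lower with TGF-β1 (edgeR's quasi-likelihood test, Benjamini-Hochberg adjusted p under 0.05). TFPI had 3 counts over the TGFB1 libraries and 6 over the control libraries and was left out by the filter on low counts (edgeR adjusted p = 0.591 with no filter). Among all 14897 genes tested 47.3% were called, 23.4% higher and 23.9% lower. Scaling by library size alone, without TMM, called 4216 genes higher and 2879 lower, against 3483 and 3561 with TMM, and kept the calls of all 8 members. VTN passed the filter on low counts only through the control libraries, which fixed its direction, while the other 7 tested members reached the filter in both groups. In all 8 tested members the TGFB1 libraries did not overlap the control libraries, which was so for 54.2% of all tested genes. The members were chosen with results of these libraries known, so these counts describe them and do not show that they differ from other genes.

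**Figure D1:**
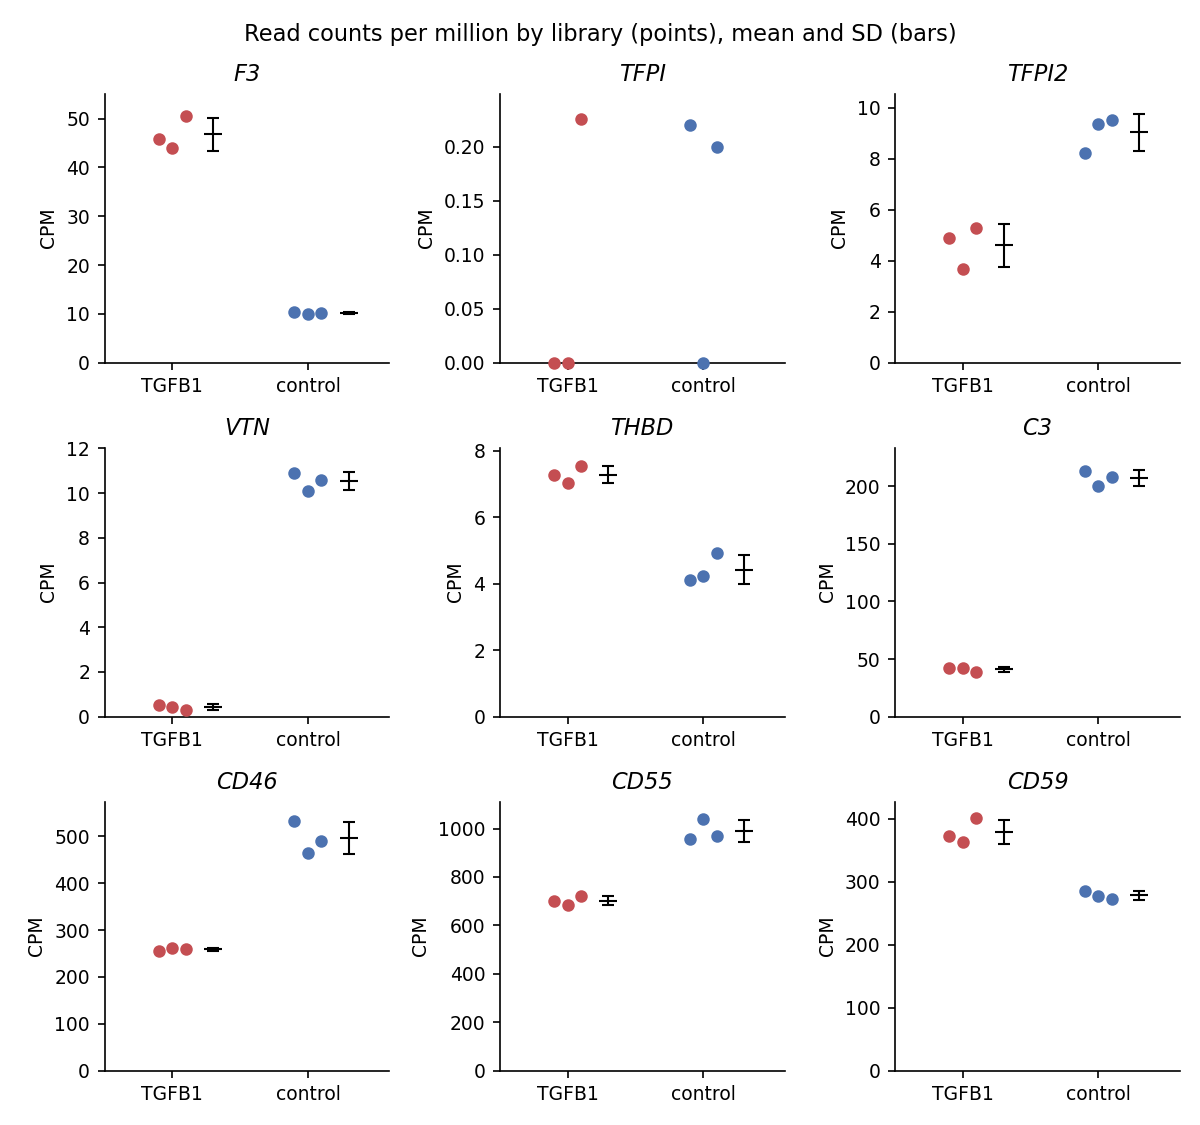
CPM of the 9 genes in each library, with 3 TGFB1 libraries on the left and 3 control libraries on the right of each panel, and the mean with its SD beside the points except for TFPI. In the 8 tested genes no TGFB1 point reaches into the range of the control points, while TFPI lies between 0 and 0.226 CPM in every library.

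F3, the trigger of clotting, rose most. It stood at 45.9, 44.0 and 50.5 CPM in TGFB1 libraries 1 to 3 and at 10.3, 9.91 and 10.1 CPM in control libraries 1 to 3. The lowest TGFB1 library was thus more than 4 times the highest control library, and the control libraries were nearly equal, with an SD of 0.216 CPM. Its log2 fold change was 2.21 ± 0.0849 (SE), or 4.62-fold (edgeR adjusted p = 1.26e-18). Only 2.28% of the tested genes changed by more in either direction.

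The inhibitors of the tissue factor pathway were scarce or fell. TFPI had 0, 0 and 3 counts in TGFB1 libraries and 3, 0 and 3 counts in control libraries. The ratio of TGFB1 to control was 0.485 with an exact 95% interval of 0.0785 to 2.27, so neither a rise nor a fall was detectable at this depth. Over either group TFPI stayed under 0.15 CPM, close to the 0.0676 CPM in TGFB1 libraries and 0.0697 CPM in control libraries that a count of 0 over a group would still allow. Intervals and limits of this kind cover counting error only, because counts were pooled over the libraries of a group and variation between libraries was left out. The reads also carry no molecular identifiers.

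TFPI2 stood at 4.88, 3.66 and 5.27 CPM in TGFB1 libraries and at 8.21, 9.35 and 9.53 CPM in control libraries. The TGFB1 libraries were all lower, and they varied more than those of any other tested member except VTN, with an SD of 18.3% of the mean. The log2 fold change was −0.99 ± 0.149 (edgeR adjusted p = 2.73e-06), or 1.98-fold lower. GNGT1, which the GENCODE 29 annotation places across TFPI2 on the opposite strand, had 3 to 6 counts in TGFB1 libraries and 4 to 12 counts in control libraries, few beside the 60 to 72 counts of TFPI2 in TGFB1 libraries and its 112 to 143 counts in control libraries.

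THBD, the anticoagulant receptor for thrombin, rose. It was at 7.26, 7.02 and 7.53 CPM in TGFB1 libraries and at 4.11, 4.23 and 4.93 CPM in control libraries. Control library 3 was the highest of its group and still lay below each TGFB1 library. The log2 fold change was 0.71 ± 0.147 (edgeR adjusted p = 0.000202), or 1.64-fold, with a 95% interval of 0.42 to 1.00 on the log2 scale. That interval ends below the interval of F3, 2.04 to 2.37.

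VTN fell most among the members. It had 8, 7 and 4 counts in TGFB1 libraries and 149, 146 and 159 counts in control libraries, or 0.424 ± 0.121 CPM and 10.5 ± 0.406 CPM (SD, n = 3 each). Every control library thus held more than 10 times the counts of any TGFB1 library. The log2 fold change was −4.60 ± 0.223 (edgeR adjusted p = 2.62e-16), and only 0.376% of tested genes changed by more. From the 19 TGFB1 counts and 454 control counts the level was 24.6-fold lower, with an exact 95% counting interval of 15.6 to 41.3.

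VTN shares its place in the genome with SARM1, which lies on the opposite strand in GENCODE 29. SARM1 had 30, 51 and 28 counts in TGFB1 libraries and 66, 68 and 79 counts in control libraries and also fell, by 1.01 ± 0.194 on the log2 scale (edgeR adjusted p = 8.08e-05). The counting is not stated to use strand, and without strand reads of the 2 genes cannot be told apart where they overlap. Reads called ambiguous were left out of the counts, so such reads may be missing from both genes. The fall of VTN was several times that of SARM1 on the log2 scale, and SARM1 kept more counts than VTN in each TGFB1 library although it had fewer in each control library.

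C3, the central complement protein, fell strongly. It was at 42.3, 41.8 and 38.7 CPM in TGFB1 libraries and at 213, 200.0 and 208 CPM in control libraries. The spread within a group was 4.74% of the mean in TGFB1 libraries and 3.07% in control libraries, small beside the gap between them. The log2 fold change was −2.33 ± 0.056, or 5.04-fold lower (edgeR adjusted p = 2.60e-23), the lowest p of the members, and 2.01% of tested genes changed by more. GPR108, which overlaps C3 in GENCODE 29, fell by much less, by 0.37 ± 0.0624 (edgeR adjusted p = 1.40e-05).

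The membrane shields against complement split. CD46 had 256, 262 and 259 CPM in TGFB1 libraries and 533, 465 and 489.8 CPM in control libraries. The TGFB1 libraries lay close together and far below the lowest control library, control 2. The log2 fold change was −0.94 ± 0.0502, or 1.92-fold lower (edgeR adjusted p = 2.49e-15).

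CD55, the decay-accelerating factor, had 702, 683 and 723 CPM in TGFB1 libraries and 958, 1041 and 968 CPM in control libraries. It remained the most counted of the members in every library, and the groups did not overlap. Its log2 fold change was −0.49 ± 0.0467, or 1.41-fold lower (edgeR adjusted p = 6.30e-10). CD46 and CD55 belong to the gene cluster of complement regulators on the long arm of chromosome 1, and both fell, CD46 by more than CD55, with 95% intervals of −1.04 to −0.84 for CD46 and −0.58 to −0.40 for CD55 on the log2 scale.

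CD59 went the other way. It had 372, 363 and 400.2 CPM in TGFB1 libraries and 285, 277 and 272 CPM in control libraries, so its lowest TGFB1 library was above its highest control library. The log2 fold change was 0.45 ± 0.0482, or 1.36-fold (edgeR adjusted p = 8.20e-09). This was the smallest change among the tested members, and 27.9% of all tested genes changed by more, against 24.8% for CD55 and 10.4% for CD46.

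**Figure D2:**
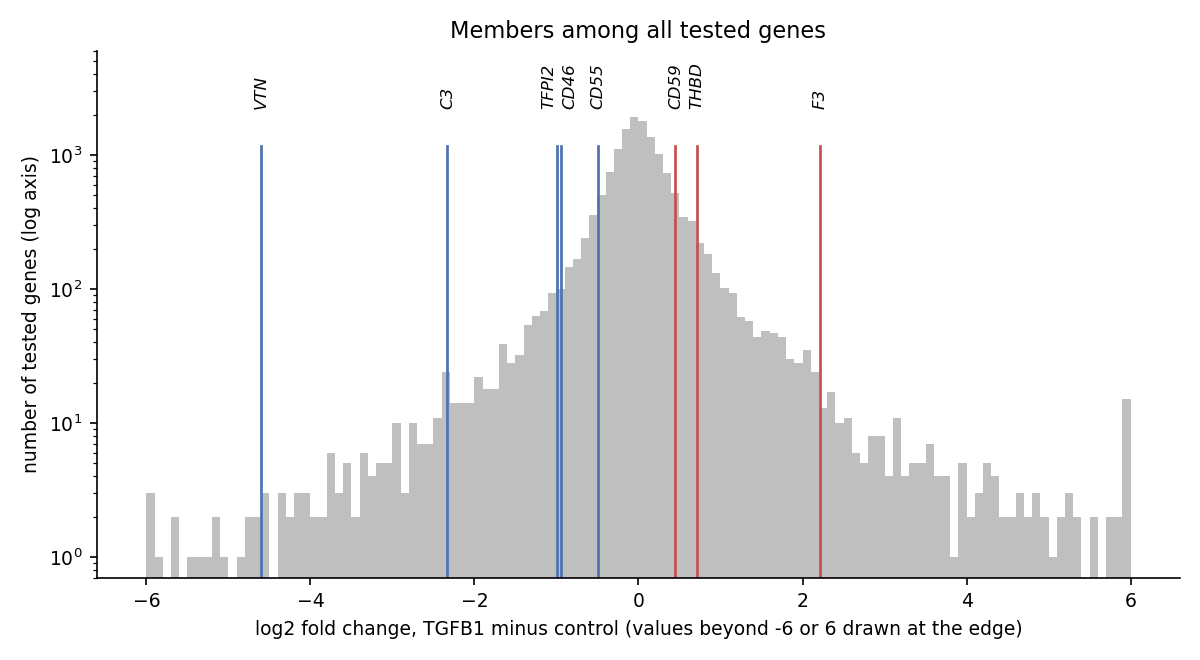
Number of tested genes (log axis) by log2 fold change, TGFB1 minus control, for 14897 genes in grey, with the 8 tested members as vertical lines, red where higher and blue where lower with TGF-β1. VTN at −4.60, C3 at −2.33 and F3 at 2.21 lie in the thin tails, and CD59 at 0.45 and CD55 at −0.49 lie near the bulk of the genes.

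Ratios of counts within a library do not depend on how libraries are scaled, and they set the members against each other. CD59 had 0.529, 0.531 and 0.553 counts per count of CD55 in TGFB1 libraries and 0.297, 0.266 and 0.281 in control libraries. Per count of CD46 it had 1.46 ± 0.0801 counts in TGFB1 libraries and 0.561 ± 0.0312 in control libraries (SD, n = 3 each), so CD59 passed CD46 in counts in each TGFB1 library and stood below it in each control library. The ratio of CD46 to CD55 was 0.369 ± 0.0129 in TGFB1 libraries and 0.503 ± 0.0548 in control libraries.

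F3 was also set against TFPI2 and THBD. F3 had 9.39, 12 and 9.57 counts per count of TFPI2 in TGFB1 libraries and 1.26, 1.06 and 1.06 in control libraries, a 9.16-fold difference. F3 was thus in wide excess of TFPI2 in TGFB1 libraries and near parity with it in control libraries. Per count of THBD, F3 had 6.43 ± 0.233 counts in TGFB1 libraries and 2.30 ± 0.242 in control libraries (SD, n = 3 each), a 2.80-fold difference although both genes rose. SERPINE2, the gene of a thrombin inhibitor, rose by more than F3, with a log2 fold change of 5.37 ± 0.0702 against 2.21 ± 0.0849. The groups did not overlap in any of the 5 ratios between members, which were chosen after values were seen. For CD59 to CD55, CD59 to CD46 and F3 to TFPI2 this was fixed beforehand. In these pairs 1 gene was higher and the other lower in every TGFB1 library. An exact two-sided permutation test over libraries gave p = 0.1 for each, also after Benjamini-Hochberg adjustment over the 5, and 3 libraries against 3 can give no smaller value.

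**Figure D3:**
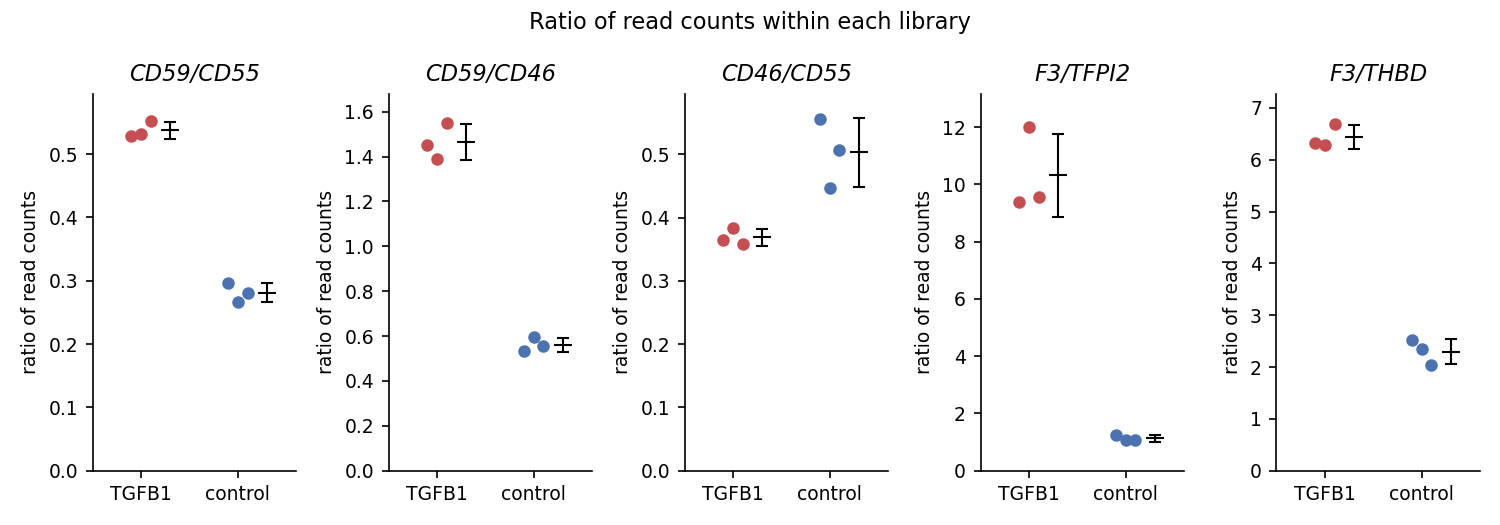
Ratio of the read counts of 2 members within each library, for 5 pairs, with TGFB1 libraries on the left, control libraries on the right and the mean with its SD beside the points. In the ratio of F3 to TFPI2 the TGFB1 libraries sit at 9.39 to 12 and the control libraries at 1.06 to 1.26.

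Levels of different genes were compared per length of transcript, as CPM per kilobase of the longest GENCODE 29 transcript (RPKM). In TGFB1 libraries the order was CD55 at 243 ± 6.93 RPKM, CD59 at 49.6 ± 2.57, CD46 at 33.1 ± 0.365, F3 at 20.5 ± 1.45, C3 at 7.78 ± 0.369, TFPI2 at 1.88 ± 0.344, THBD at 1.77 ± 0.0632, VTN at 0.197 ± 0.0562 and TFPI last. In control libraries the order was CD55 at 342 ± 15.6 RPKM, CD46 at 63.4 ± 4.39, C3 at 39.3 ± 1.21, CD59 at 36.4 ± 0.853, VTN at 4.91 ± 0.189, F3 at 4.42 ± 0.0946, TFPI2 at 3.69 ± 0.294, THBD at 1.08 ± 0.109 and TFPI last (SD, n = 3 each). F3 thus stood above C3 in TGFB1 libraries and below it in control libraries, and VTN stood next to last in TGFB1 libraries and in the middle of the order in control libraries. TFPI2 and THBD in TGFB1 libraries did not differ beyond their spread, and their order turned when the union of all annotated exons was used as length. The same change of length put CD59 above C3 in control libraries, at 26.8 and 24.8 RPKM, and left the other places as they were.

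**Figure D4:**
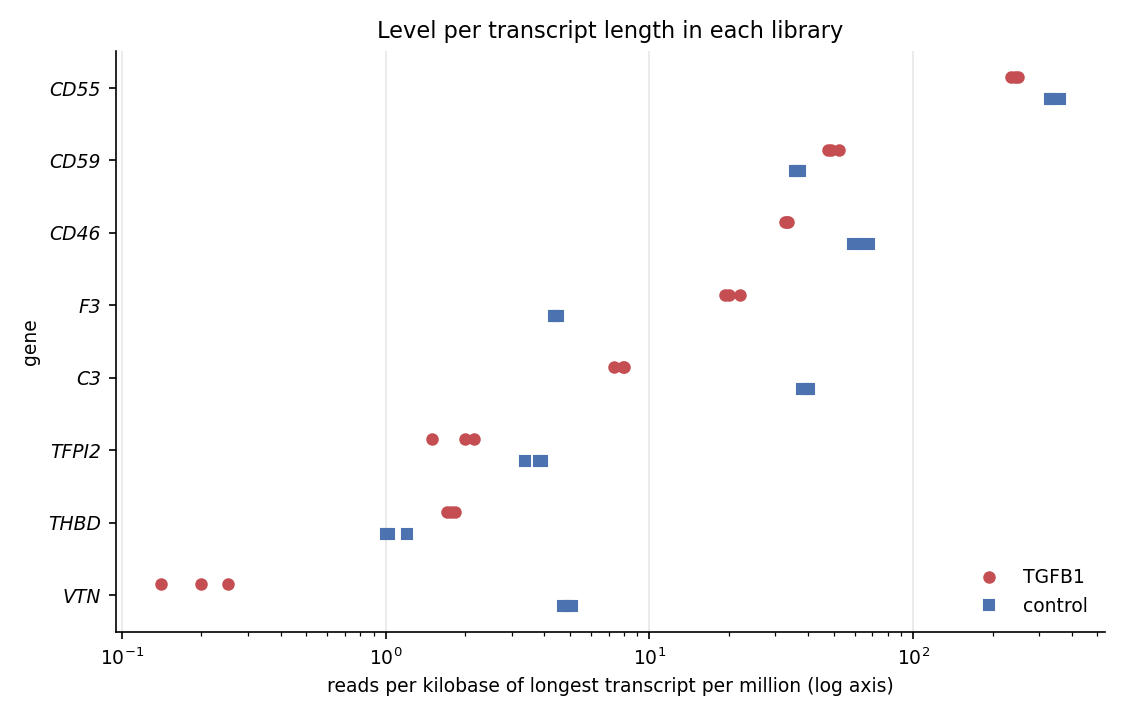
CPM per kilobase of the longest transcript (RPKM, log axis) in each library for the 8 members other than TFPI, TGFB1 libraries as red circles above control libraries as blue squares, ordered by the TGFB1 mean. CD55 leads in both groups, at 243 RPKM in TGFB1 and 342 RPKM in control libraries, and VTN stands at 0.197 RPKM in TGFB1 and 4.91 RPKM in control libraries.

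Beyond the members, 9 lists of genes from the same systems were looked at, with 124 further genes of which 69 were tested. Of these 23 were higher with TGF-β1, 25 were lower and 21 did not pass, with a median log2 fold change of 0.06, against a median of 0.00 over all tested genes. The share called was 47.3% among all tested genes.

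The genes listed with clotting inhibitors and the protein C pathway mostly rose. Of 12 genes 6 were tested, of which 5 rose and 1 fell (median log2 fold change 0.65). SERPINE2, which encodes the thrombin inhibitor protease nexin 1, was at 297 ± 9.40 CPM in TGFB1 libraries and 7.18 ± 0.526 CPM in control libraries. PROCR, the endothelial protein C receptor that works beside thrombomodulin, was at 91.4 ± 1.27 CPM in TGFB1 libraries and 27.9 ± 1.39 CPM in control libraries, a log2 fold change of 1.71 ± 0.0638 (edgeR adjusted p = 6.22e-19). GAS6, counted in this list although it encodes a ligand of TAM receptor kinases and no clotting inhibitor, rose by 0.89 ± 0.0764. ANXA5, which covers exposed phosphatidylserine, rose by 0.38 ± 0.0450. The gene that fell was PROZ, a cofactor of the inhibitor of factor Xa, at 1.86 ± 0.419 CPM in TGFB1 libraries and 2.85 ± 0.462 CPM in control libraries (edgeR adjusted p = 0.0300). Its call ended without TGFB1 library 1 or 2 (edgeR adjusted p = 0.153 and 0.0555), without control library 2 or 3 (edgeR adjusted p = 0.113 and 0.0783) and with DESeq2 as the test (DESeq2 adjusted p = 0.0982). PROC, the gene of protein C itself, had 5 to 12 counts in TGFB1 libraries and 3 to 8 counts in control libraries.

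Genes of clotting factors were mostly scarce. Of 16 genes 4 were tested, of which 1 fell and 3 did not pass. F7, whose product is the partner of tissue factor, had 4, 0 and 1 counts in TGFB1 libraries and 6, 2 and 3 counts in control libraries. F10, the substrate of their complex, stood at 1.89 ± 0.460 CPM in TGFB1 libraries and 2.51 ± 0.252 CPM in control libraries (edgeR adjusted p = 0.185). VWF (von Willebrand factor) fell to 0.510 ± 0.192 CPM in TGFB1 libraries, against 2.66 ± 0.419 CPM in control libraries (edgeR adjusted p = 4.23e-07). F8 had 5.39 ± 1.15 CPM in TGFB1 libraries and 3.95 ± 1.08 CPM in control libraries (edgeR adjusted p = 0.0542). F8 passed without TGFB1 library 1 or control library 1 (edgeR adjusted p = 0.0142 and 0.00833), with no filter on low counts (edgeR adjusted p = 0.0406) and when TMM was left out (edgeR adjusted p = 0.0344). F12, the contact factor, did not pass (edgeR adjusted p = 0.507).

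Among the protease-activated receptors, through which clotting proteases signal to cells, 3 of 4 were tested, of which 2 fell and 1 did not pass. F2RL1, the receptor activated by the tissue factor complex, was at 7.53 ± 0.335 CPM in TGFB1 libraries and 10.5 ± 1.29 CPM in control libraries (edgeR adjusted p = 0.00241). The thrombin receptor F2R was at 20.8 ± 2.17 CPM in TGFB1 libraries and 18.4 ± 0.760 CPM in control libraries (edgeR adjusted p = 0.101, and 0.0333 when TMM was left out). F2RL2 fell to 0.182 ± 0.0452 CPM in TGFB1 libraries, against 1.65 ± 0.354 CPM in control libraries, and passed the filter only through the control libraries.

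Of the complement components other than C3, 4 of the 7 tested fell, 1 rose and the other 2 did not pass, while 18 of the 25 listed had too few counts (median −0.55). C1S and C1R, the proteases of the C1 complex of the classical pathway, fell as C3 did. C1S was at 36.1 ± 0.411 CPM in TGFB1 libraries and 76.1 ± 0.632 CPM in control libraries (log2 fold change −1.07 ± 0.0609, edgeR adjusted p = 9.20e-15), and C1R fell by 0.80 ± 0.0868. CFD, the alternative pathway protease factor D, fell by 0.48 ± 0.0821. C5 fell by 0.78 ± 0.246 (edgeR adjusted p = 0.0104), and no longer passed when control library 1 was left out (edgeR adjusted p = 0.0901). CFB (factor B), the only tested component that rose, was at 8.14 ± 1.48 CPM in TGFB1 libraries and 6.16 ± 0.317 CPM in control libraries (edgeR adjusted p = 0.0188), and did not pass without TGFB1 library 2 or control library 3 (edgeR adjusted p = 0.201 and 0.0738) or in DESeq2 (DESeq2 adjusted p = 0.0601). C4A and C4B are near-identical copies between which reads can be lost, and each had 12 counts or fewer in any library.

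Other complement regulators fell in 5 of 6 tested and rose in 1 (median −1.07). C4BPB, the β chain of C4b-binding protein, which joins it to protein S, was at 159 ± 1.14 CPM in TGFB1 libraries and 284 ± 9.44 CPM in control libraries (edgeR adjusted p = 8.68e-15). C4BPA, its α chain, had 2, 0 and 3 counts in TGFB1 libraries and 38, 24 and 18 counts in control libraries and passed the filter only through the control libraries. CLU (clusterin), a secreted chaperone that like vitronectin binds the nascent membrane attack complex, rose to 299.6 ± 8.10 CPM in TGFB1 libraries, against 197 ± 9.22 CPM in control libraries (edgeR adjusted p = 2.02e-11).

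Of 9 complement receptor symbols 8 were in the files and 3 were tested, of which 1 rose, 1 fell and 1, ITGB2, did not pass (edgeR adjusted p = 0.203). C5AR1, the signalling receptor for C5a, fell to 1.38 ± 0.291 CPM in TGFB1 libraries, against 3.40 ± 0.385 CPM in control libraries. C5AR2 was at 1.77 ± 0.486 CPM in TGFB1 libraries and 0.186 ± 0.0795 CPM in control libraries, and passed the filter only through the TGFB1 libraries.

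Receptors and partners of vitronectin moved against VTN. Of 8 genes 7 were tested, of which 6 rose and 1 fell (median 0.74). PLAUR (the urokinase receptor) rose to 88.5 ± 2.79 CPM in TGFB1 libraries, against 38.4 ± 1.99 CPM in control libraries. ITGB3, the β subunit of the classical vitronectin receptor, rose to 5.93 ± 0.876 CPM in TGFB1 libraries, against 0.762 ± 0.153 CPM in control libraries (edgeR adjusted p = 2.83e-11). ITGB1 rose to 953 ± 7.75 CPM in TGFB1 libraries, against 569 ± 25.2 CPM in control libraries. The member that fell was ITGB8, which passed the filter only through the control libraries.

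CD55 and CD59 are held in the membrane by a glycosylphosphatidylinositol (GPI) anchor, and the genes that build it showed no shared direction. Of 27 tested 7 rose, 7 fell and 13 did not pass (median 0.06), and when TMM was left out 9 rose and 4 fell. The lowest p-values belonged to PIGC and PIGW, which rose by 0.49 ± 0.0769 and 0.46 ± 0.0748 on the log2 scale, to DPM2, which rose by 0.35 ± 0.0597, and to PIGS, which fell by 0.33 ± 0.0561. Genes of γ-carboxylation, the vitamin K dependent step that many clotting proteins need, were tested in 6 cases, with 2 higher, 3 lower and 1 not past the test. NQO1, a quinone reductase that can reduce vitamin K, fell to 125 ± 5.85 CPM in TGFB1 libraries, against 268 ± 18.8 CPM in control libraries. VKORC1L1, a vitamin K epoxide reductase, rose by 0.43 ± 0.0604, PRRG4, a membrane Gla protein, rose by 1.09 ± 0.169 and its relative PRRG1 fell by 0.35 ± 0.0945.

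**Figure D5:**
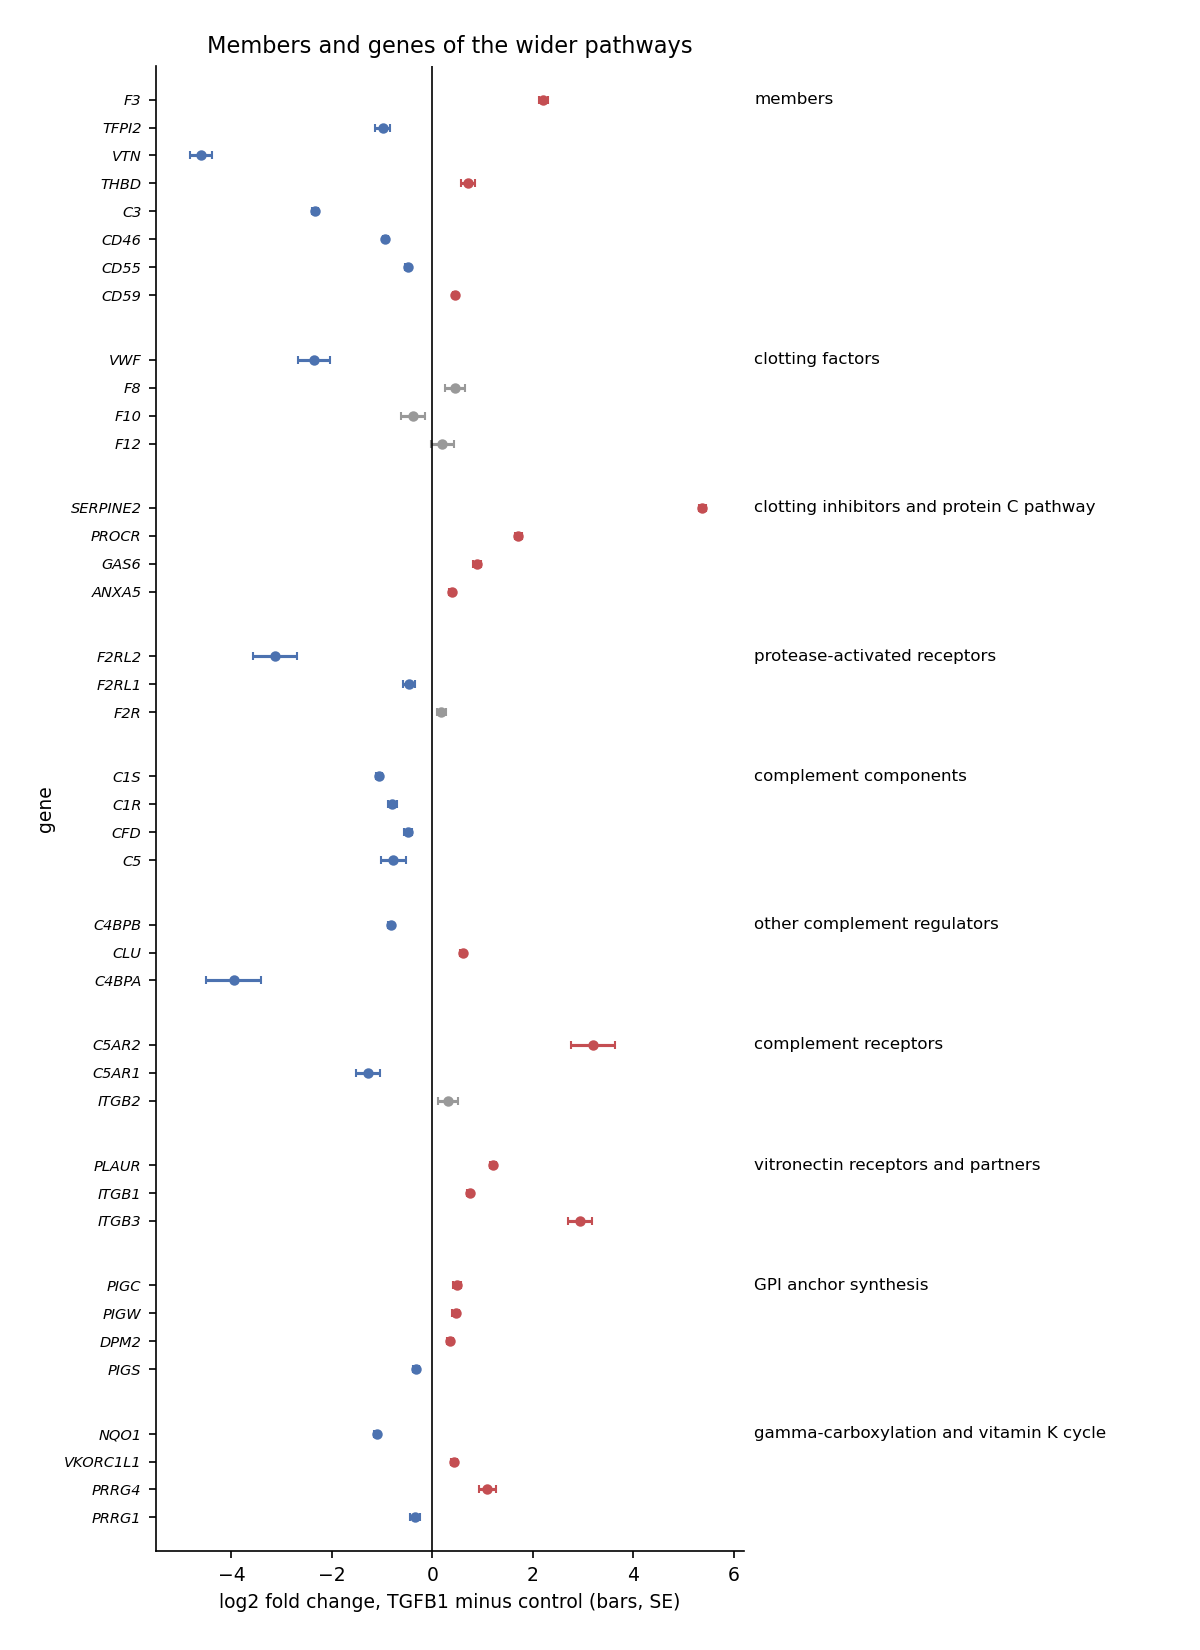
Log2 fold change, TGFB1 minus control, with its SE for the 8 tested members and for up to 4 tested genes from those with the lowest p in each of 9 further lists, red where higher, blue where lower and grey where the edgeR adjusted p was 0.05 or more. Genes listed with clotting inhibitors and the protein C pathway, and vitronectin partners, lie mostly to the right, with SERPINE2 at 5.37. Complement components and regulators lie mostly to the left, with C1S at −1.07.

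Several members are best known from other cell types, so markers of these were read beside them. Of 9 endothelial markers, which bear on THBD and PROCR, 1 was tested, and the summed level was 81.5 to 84.0 CPM in TGFB1 libraries and 70.7 to 75.5 CPM in control libraries, nearly all from ESAM, at 82.1 ± 1.11 CPM in TGFB1 libraries and 73.6 ± 2.68 CPM in control libraries. PECAM1, KDR and EMCN had 0 counts in every library. Of 10 hepatocyte markers, which bear on VTN and C3, none had enough counts to be tested, ALB was at 0 throughout, and the sum was 0.488 to 0.678 CPM in TGFB1 libraries and 0.147 to 0.485 CPM in control libraries. SERPINA1 made up most of the TGFB1 sum, with 7, 3 and 6 counts in TGFB1 libraries and 0, 1 and 1 counts in control libraries.

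Of 9 monocyte and macrophage markers 1 was tested, and PTPRC was at 0 throughout. Their sum was 2.98 to 4.37 CPM in TGFB1 libraries and 1.25 to 2.00 CPM in control libraries, with CSF1R at 3.27 ± 0.486 CPM in TGFB1 libraries and 0.668 ± 0.204 CPM in control libraries (edgeR adjusted p = 1.23e-07). Of 6 megakaryocyte and platelet markers 2 were tested and neither passed, PF4 and PPBP were at 0 throughout, and the sum was 4.14 to 5.55 CPM in TGFB1 libraries and 3.46 to 5.13 CPM in control libraries. Fibroblast markers did move with the groups: of 10 genes 5 were tested and rose, FAP only by passing the filter through the TGFB1 libraries. Their sum was 119.9 to 136 CPM in TGFB1 libraries and 90.8 to 94.9 CPM in control libraries. Most of it was COL1A1, at 105 ± 5.38 CPM in TGFB1 libraries and 81.2 ± 2.63 CPM in control libraries. The groups overlapped in THY1, and 4 genes were called higher with DESeq2 and 3 with a filter of at least 1 CPM in 3 libraries. COL1A2, COL3A1, LUM, PDGFRA and POSTN averaged 0.214 CPM or less in either group. The part of these markers in the changes of F3, THBD and CD59 was not tested.

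Genes whose profile over the 6 libraries was most like that of the members with the largest rise and fall were found by the root mean square distance of log2 CPM, centred on the control mean. Nearest to F3 were CATSPER1, a sperm calcium channel subunit, TMOD1, which caps actin filaments, and ELK3, an ETS-family transcription factor, at distances of 0.0836, 0.0867 and 0.0937 log2 units. Nearest to VTN were PAPPA2, which cleaves carriers of insulin-like growth factors, the aldehyde dehydrogenase ALDH3A1 and the potassium channel gene KCNH5, at distances of 0.140, 0.238 and 0.257. In TGFB1 libraries ALDH3A1 was at 0.666 ± 0.190 CPM and KCNH5 at 0.113 ± 0.0785 CPM, so their distances rest on few counts there, as does the profile of VTN. With 2 groups, likeness here means mainly a similar fold change: ELK3 was at 29.1 ± 1.03 CPM in TGFB1 libraries and 6.37 ± 0.627 CPM in control libraries, and PAPPA2 at 2.69 ± 0.430 CPM in TGFB1 libraries and 54.2 ± 4.51 CPM in control libraries.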

How the data were processed

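RNA of 6 libraries, 3 TGFB1 and 3 control, was analysed from whole-number read counts per gene symbol, deposited by the authors without normalization. The submitters' processing notes name the builds GRCh37 and hg19 and the tools HTSeq, TopHat and TopHat2 2.0.11, without saying which did what. Annotation, strand use and read filters were not given in the sources used here. Closing totals of each table (no feature 5.44% to 5.98%, ambiguous 9.01% to 9.43%, aligned to several places 12.0% to 12.5%) stayed out of library sizes and tests, so reads shared between overlapping or duplicated genes are missing.

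Groups came from the titles. Genes passing filterByExpr (minimum count 10, minimum total count 15) in edgeR 4.0.16 numbered 14897. They were scaled by TMM and tested with glmQLFit and glmQLFTest (robust), with Benjamini-Hochberg adjustment over all of them and a threshold of 0.05. Standard errors were the fold change over the root of its F statistic, and 95% intervals of log2 fold changes are the estimate plus or minus the normal quantile times this error. Replicate libraries differed beyond sampling noise, with 1.82 to 4.66 units of chi-square per degree of freedom. DESeq2 1.42.0, limma 3.58.1 (voom), other scalings and filters, a block for the replicate number and fits without each library in turn were alternatives.

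The members and the lists were chosen with earlier results of these data known, and the 5 within-library ratios, the overlapping genes, and PROC, PROZ, F7, CFB, C4A and C4B were chosen after values were seen. Named were all members, up to 4 tested genes with the lowest p of each further list (some items are counted in their list but not reported here by name), and the 3 genes nearest in profile to the largest rise and the largest fall; markers of other cell types were summed and named where tested or near 0. Lengths were from GENCODE 29 and promoters from RefSeq GRCh38.p14, matched by symbol.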

Additional observations from a re-analysis of the deposited data

How the results depend on the processing

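Under all 13 alternatives 3 members were called higher and 5 lower, and each kept its direction and its side of the threshold. The log2 fold changes ranged from 2.15 to 2.27 for F3, −1.09 to −0.83 for TFPI2, −4.80 to −4.43 for VTN, 0.66 to 0.79 for THBD, −2.37 to −2.28 for C3, −0.99 to −0.88 for CD46, −0.52 to −0.44 for CD55 and 0.40 to 0.50 for CD59. The largest adjusted p of any of these was 0.00184, for THBD. Over all genes 2965 to 4216 were called higher and 2879 to 3561 lower, the extremes of the first coming from DESeq2 and from scaling by library size alone. Scaling by library size alone called 4216 higher and 2879 lower, against 3483 and 3561 with TMM. Of the 9 further lists 21 to 27 genes were called higher and 21 to 26 lower.

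Same-numbered libraries showed no strong shared deviation (correlations of deviations 0.0327, −0.0985 and −0.0473). Such values cannot exclude that the numbers pair them, and the labels do not state a pairing. With the replicate number as a block 3355 genes were higher and 3420 lower, 3 members were higher and 5 lower, and among the named genes only F8 changed its call (edgeR adjusted p = 0.0286 with the block).

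Among 40 further genes followed, F8, F2R, C5, PROZ, CFB and ESAM changed sides of the threshold under at least 1 alternative, and the cause was not tested. The ESAM call ended without TGFB1 library 1, control library 2 or control library 3 (edgeR adjusted p = 0.0823, 0.132 and 0.0569). Depth limits TFPI, with 3 counts over the TGFB1 and 6 over the control libraries, and the size of the VTN fall, which rests on 19 TGFB1 counts.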

Other observations

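Several further genes of these systems had too few counts for the filter. F2 (prothrombin) had 4, 8 and 2 counts in TGFB1 libraries and 1, 0 and 1 counts in control libraries. KNG1 (kininogen) had 0, 0 and 1 counts in TGFB1 libraries and 4, 1 and 8 counts in control libraries. ITGB6, the integrin subunit that helps release active TGF-β, had 9, 12 and 11 counts in TGFB1 libraries and 2, 3 and 2 counts in control libraries. The C1 inhibitor gene SERPING1 had at most 1 count in a TGFB1 library and at most 2 counts in a control library. The gene of the antithrombin serpin, SERPINC1, had 5, 8 and 5 counts in TGFB1 libraries and 3, 7 and 7 counts in control libraries. These genes were picked after their values were seen. With no filter on low counts, KNG1 was called lower (edgeR adjusted p = 0.0204), F2 did not pass (edgeR adjusted p = 0.0502), and neither did SERPING1 and SERPINC1 (edgeR adjusted p = 0.673 and 0.990). ITGB6 was called higher in all 5 alternatives whose filter let it in, with edgeR adjusted p-values of 0.00389 to 0.0137; these were the fit with no filter and those without TGFB1 library 1 or any 1 control library.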
